A study of Xenopus laevis with 16 samples.

Results

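Sox proteins bind DNA through a high-mobility-group (HMG) domain and usually act together with a partner transcription factor. Sox2 and Sox3 belong to the SoxB1 group, which marks neural precursors and holds them in a dividing, uncommitted state. Sox11 is a SoxC protein of committed neural cells and promotes expression of neuronal genes. Xenopus sox15, described under the older name SoxD, is active in early ectoderm and then in neural ectoderm, where it is needed for neural differentiation. Animal caps form epidermis when cultured alone because of their own BMP signalling, and blocking BMP turns them towards neural tissue, in which sox2 and sox3 are standard markers.

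The levels of 5 Sox genes of Xenopus laevis, sox2.L, sox3.L, sox3.S, sox11.S and sox15.L, are described here from 6 array probe sets. These are the probe sets that the platform annotation assigns to one of those symbols, of 15491 probe sets and 7531 gene symbols in all. Xenopus laevis is allotetraploid and keeps many genes as a pair of homeologs, written .L and .S. For sox2.L there were 2 probe sets, Xl.188.1.S1_at and Xl.6199.1.A1_x_at, named below by their endings _at and _x_at. In Affymetrix naming, the ending _x_at marks a probe set with probes that may also match other sequences. The other 4 were Xl.21447.1.S1_at for sox3.L, Xl.22.1.S1_at for sox3.S, Xl.891.1.S1_at for sox11.S and Xl.1150.1.S1_at for sox15.L. A further probe set, Xl.891.2.S1_a_at, is annotated to both sox11 homeologs and was not counted among them.

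Total RNA of pooled animal caps, the explanted ectoderm of the blastula, was hybridised to 16 single-colour arrays, 4 in each of 4 groups. In the injected groups, both cells of the 2-cell embryo had been given foxD5 mRNA, 100 pg per cell, and the other groups were uninjected. FoxD5, a forkhead protein, regulates early neural ectoderm. Injected and uninjected caps were grown either in plain culture or in 200 ng/ml Noggin, which is secreted and blocks BMP by binding it. The controls received no other mRNA, so the labels give no control for the injection itself. Every uninjected sample is labelled as siblings of 1 injected sample, which gives 4 pairs without Noggin and 4 pairs in Noggin. They are called here pairs 1 to 4 and Noggin pairs 1 to 4. The injected sample of pair 1 in each culture carries no number on its label and was placed there by elimination. Samples held 45 to 171 caps, and those of Noggin pair 4 are labelled as small. Injected caps without Noggin were harvested between stages 11.5 and 13, and the stage of their uninjected siblings is not on the labels. In Noggin, the labelled stages ran from 11.5 to 12.5, and in Noggin pairs 2, 3 and 4 the stage range of the injected caps ended or began later than that of their siblings. The part of stage in the results below was not tested.

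The source tissue on the labels, cochlea, contradicts the sample descriptions, which were followed. All 15 measured genes of the animal cap ectoderm marker list had a mean signal over 16, and their summed signal ran from 9290.0 to 23223.8 over the arrays. The largest part of that sum came from the keratin gene krt70.S, with group means from 5262.4 to 6380.4. No other tissue was hybridised for comparison, so the sum does not settle the source. Of 12 cochlea marker symbols, 1 was measured under a single symbol. On arrays, fewer cells of a type in a pool and less RNA per cell cannot be told apart. The deposited signal is linear, with a trimmed mean of 150.0 on average over the arrays, and 28.5% of probe sets had a mean signal under 16. A signal of 16 was added to every value before taking log2, which damps differences among low values, and arrays were then quantile normalised. A log2 difference below is on that scale, and signals are as deposited. Signals of different probe sets depend on their probes and are not compared with one another.

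Among the 6 probe sets, 1 passed the test in 1 of 6 comparisons. The _at probe set of sox2.L was higher in foxD5-injected than in uninjected caps by 0.85 ± 0.18 (SE, log2) over both cultures, a fold of 1.80 with a 95% interval from 1.37 to 2.36 on the scale with 16 added. Its adjusted p was 0.0408, from limma with Benjamini-Hochberg adjustment over all 15491 probe sets. The background in that comparison was 213 probe sets called, or 1.37%. The other probe set of sox2.L and those of sox3.L, sox3.S, sox11.S and sox15.L did not pass in any comparison. The call of the _at probe set was lost in the absence of 6 of the 8 pairs, as given below.

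**Figure D1:**
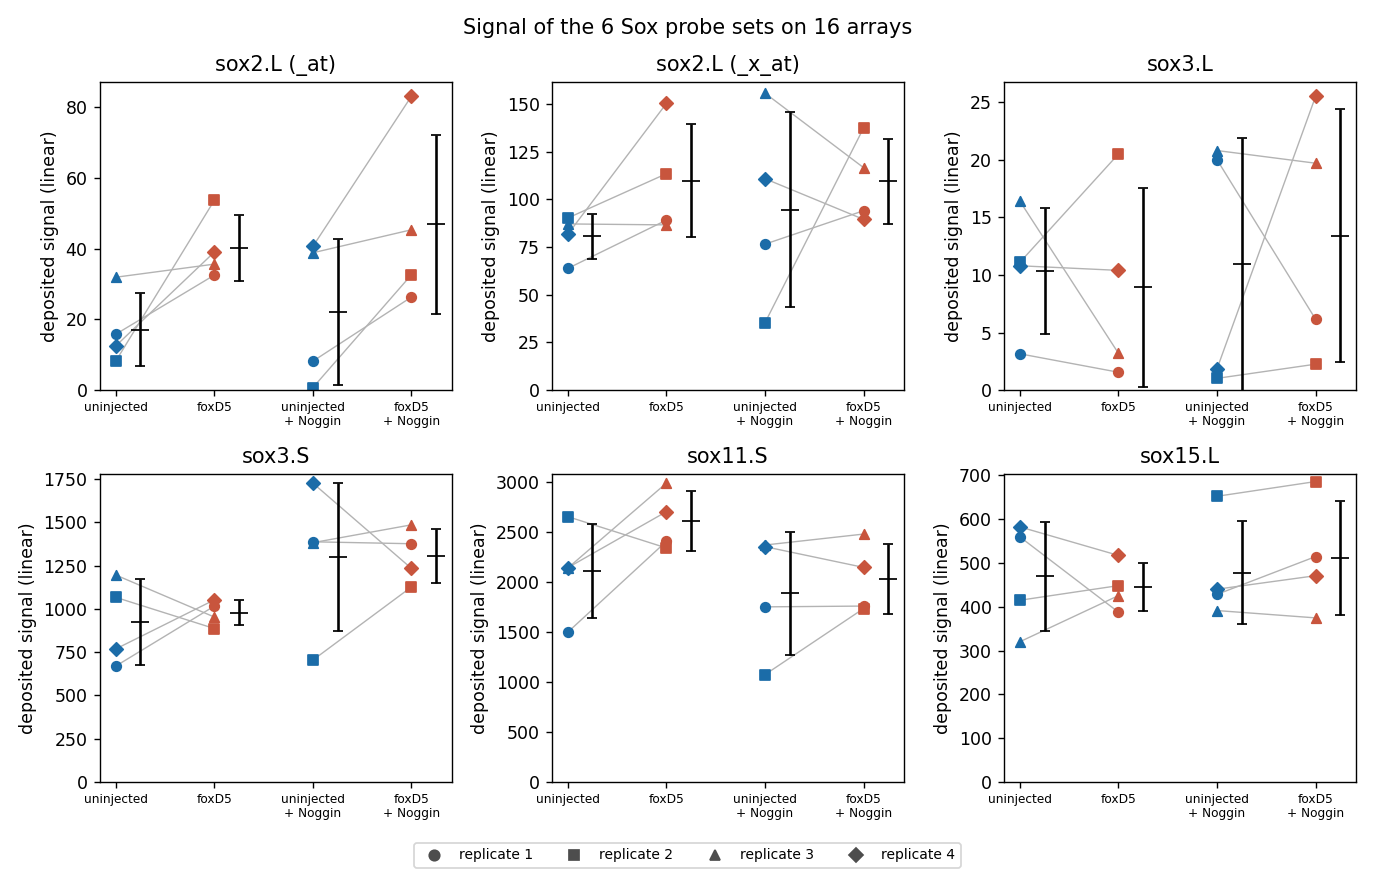
Deposited signal (linear axis from 0) of the 6 Sox probe sets on each of the 16 arrays, with uninjected groups in blue and foxD5-injected groups in red. Marker shapes give the replicate, grey lines join siblings, and black bars give the mean ± SD of 4 arrays. All 4 foxD5 arrays of sox2.L (_at) lie above all 4 uninjected arrays without Noggin, and the groups of sox15.L overlap throughout.

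The _at probe set of sox2.L had signals of 15.8, 8.21, 31.9 and 12.5 in the uninjected caps of pairs 1 to 4. Their foxD5-injected siblings had 32.5, 53.6, 35.6 and 39.0. All 4 injected samples were thus above all 4 controls, although pair 3 differed little. In Noggin pairs 1 to 4 the uninjected caps had 8.19, 0.731, 38.8 and 40.6. Their injected siblings had 26.3, 32.6, 45.3 and 83.0. Every injected sample was again above its own sibling, but the groups overlapped because the controls of Noggin pairs 3 and 4 were already near 40. The group means rose in the order uninjected (17.1 ± 10.3, SD, n = 4), uninjected with Noggin (22.1 ± 20.6), foxD5 (40.2 ± 9.34) and foxD5 with Noggin (46.8 ± 25.4), and neighbours in that order overlapped. On 5 of the 16 arrays, all of them uninjected, its signal was under 16.

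The log2 difference within a pair ranged from 0.05 in pair 3 to 1.63 in Noggin pair 2. Noggin pair 2 is also the pair with the lowest control signal. The mean difference was 0.84 ± 0.25 (SE) without Noggin and 0.86 ± 0.25 in Noggin. Neither passed on its own, with limma adjusted p of 0.271 and 0.344. The difference between the effects in the 2 cultures was 0.03 ± 0.36, with a 95% interval from -0.75 to 0.81 and an adjusted p of 0.997. Over both cultures the value was higher in 8 of 8 pairs.

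The _x_at probe set of sox2.L had signals of 63.8, 90.2, 87.1 and 81.7 in the uninjected caps of pairs 1 to 4. In the injected caps of those pairs they were 89.1, 113.4, 86.6 and 150.2. On the deposited scale these groups overlapped, since pair 3 was level. In Noggin the uninjected caps had 76.5, 35.3, 155.6 and 110.8. The injected caps had 94.0, 137.3, 116.6 and 89.5. Injected caps were higher in Noggin pairs 1 and 2 and lower in Noggin pairs 3 and 4. The group means were 80.7 ± 11.8 in uninjected caps, 94.5 ± 51.1 in uninjected caps with Noggin, 109.4 ± 22.1 in foxD5 caps with Noggin and 109.8 ± 29.5 in foxD5 caps (SD, n = 4). Neighbouring groups in that order overlapped.

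The mean foxD5 effect of the _x_at probe set was 0.35 ± 0.19 (log2, SE), with a 95% interval from -0.05 to 0.76, a limma adjusted p of 0.501 and a higher value in 6 of 8 pairs. It was 0.41 ± 0.26 without Noggin and 0.29 ± 0.26 in Noggin. The effect of the _at probe set exceeded that of the _x_at probe set by 0.50 ± 0.43 (SD, log2) and did so in 7 of 8 pairs. This gap was looked at after both effects were seen, so no p is given for it, and its size moves with the pseudocount. With a pseudocount of 1 the effects were 1.71 for _at and 0.42 for _x_at, and with 64 they were 0.38 and 0.23.

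**Figure D2:**
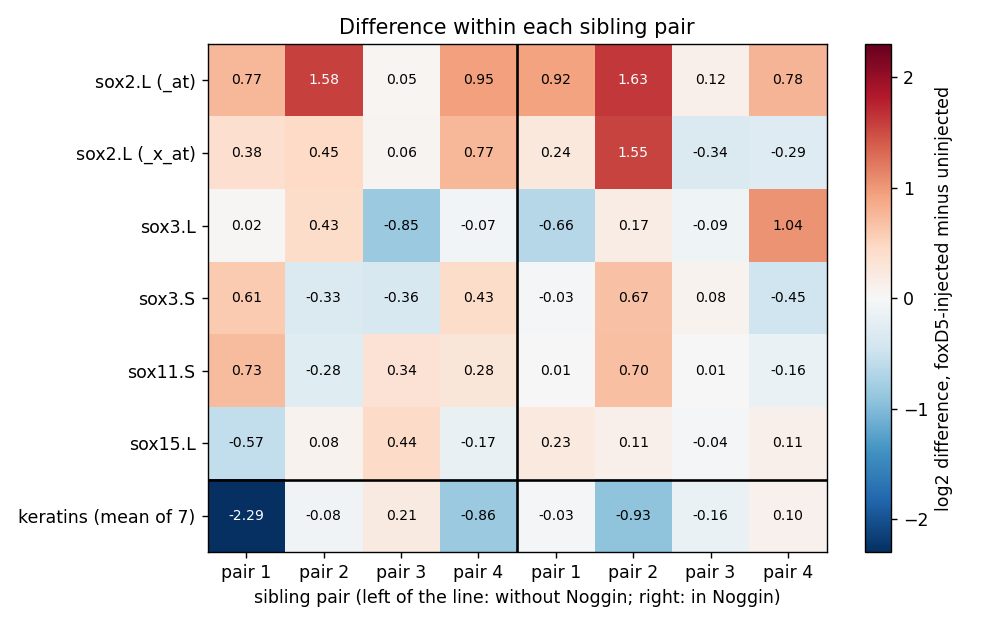
Log2 difference of foxD5-injected minus uninjected caps within each of the 8 sibling pairs, for the 6 Sox probe sets and, in the bottom row, the mean of 7 keratin genes. Red cells are higher and blue cells lower in injected caps, and the vertical line separates the cultures. The sox2.L (_at) row holds 8 values above 0, from 0.05 to 1.63, while the other rows hold both signs.

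Leaving out 1 pair at a time moved the mean foxD5 effect of the _at probe set between 0.72 and 0.98. Its limma adjusted p stayed under 0.05 only without pair 3 (0.023) and without Noggin pair 3 (0.0286), the 2 pairs with the smallest differences. It was 0.0529 without pair 1, 0.0881 without pair 2 and 0.132 without pair 4. In Noggin it was 0.132 without pair 1, 0.124 without pair 2 and 0.115 without pair 4. The size of the effect depends on the pseudocount, since this probe set has controls under 16. With a pseudocount of 1 in place of 16 the value was 1.71 and the adjusted p 0.297, and with 64 they were 0.38 and 0.0479. With no block for sibling pairs the value was 0.85 and the adjusted p 0.265.

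**Figure D3:**
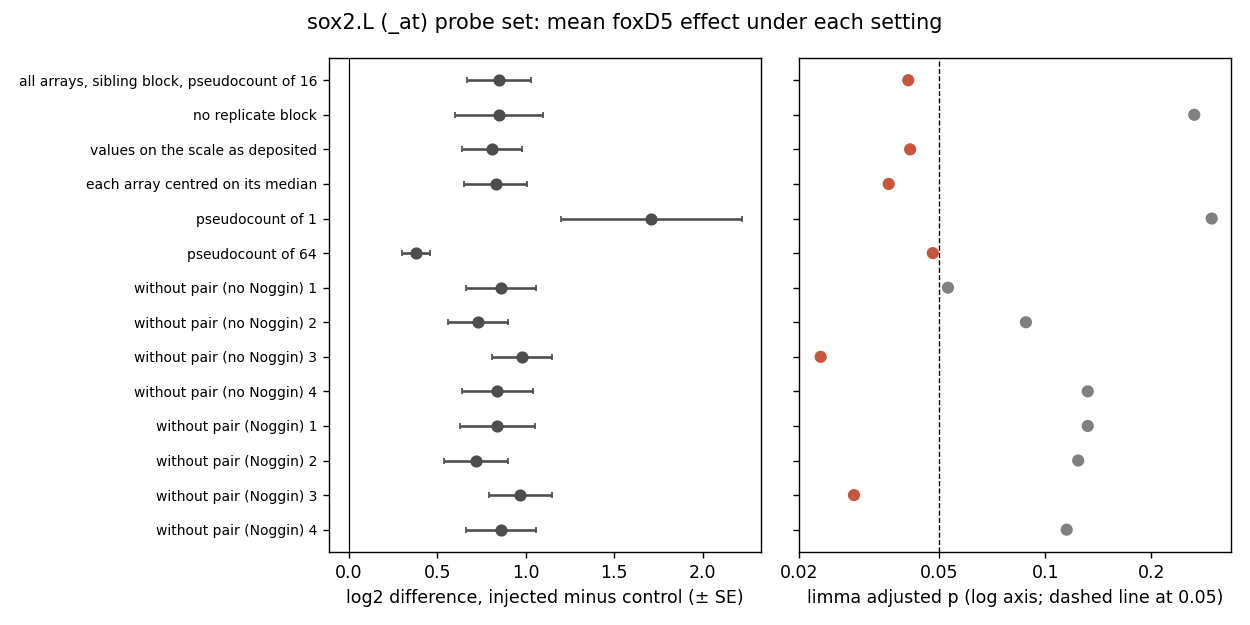
Mean foxD5 effect of the sox2.L (_at) probe set under each processing setting, as the log2 difference ± SE (left) and as the limma adjusted p on a log axis (right; red points are under the dashed line at 0.05). The difference is above 0 in every setting drawn, and the p is under 0.05 in 6 of the 14.

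For the SoxB1 gene sox3, the probe set of sox3.L was near the bottom of the signal range. In pairs 1 to 4 the uninjected caps had signals of 3.16, 11.1, 16.4 and 10.8 and the injected caps 1.56, 20.5, 3.2 and 10.4. In Noggin the uninjected caps had 20.0, 1.03, 20.8 and 1.86 and the injected caps 6.16, 2.26, 19.7 and 25.5. The signal was under 16 on 10 of 16 arrays, and all 4 groups overlapped. Group means ran from 8.93 ± 8.65 (foxD5) through 10.4 ± 5.44 (uninjected) and 10.9 ± 11 (uninjected with Noggin) to 13.4 ± 11 (foxD5 with Noggin). The mean foxD5 effect was 0.00 ± 0.18 (log2, SE), with a 95% interval from -0.39 to 0.39 and higher values in 4 of 8 pairs. That interval is on the scale with 16 added, which damps differences at this signal, so it does not bound a change in the signal itself. Signals of 1.86 and 25.5 in Noggin pair 4 counted as 1.04, and those of 16.4 and 3.2 in pair 3 as -0.85.

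The probe set of sox3.S had signals of 669.7, 1066.7, 1195.7 and 768.7 in the uninjected caps of pairs 1 to 4. The injected siblings had 1016.1, 886.7, 953.1 and 1051.9. The injected samples lay inside the range of the controls, higher than their siblings in pairs 1 and 4 and lower in pairs 2 and 3. In Noggin the uninjected caps had 1387.4, 704.4, 1382.2 and 1726.2. The injected siblings had 1376.2, 1126.7, 1485.4 and 1233.7. Noggin pair 2 was higher in the injected caps, Noggin pair 4 was lower and Noggin pairs 1 and 3 were nearly level. Group means were 925.2 ± 247.0 in uninjected caps, 977.0 ± 72.7 in foxD5 caps, 1300.0 ± 428.5 in uninjected caps with Noggin and 1305.5 ± 157.6 in foxD5 caps with Noggin (SD, n = 4). Neighbours in that order overlapped.

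The mean foxD5 effect on sox3.S was 0.08 ± 0.15 (log2, SE), with a limma adjusted p of 0.898 and higher values in 4 of 8 pairs. The 95% interval from -0.25 to 0.40 corresponds to folds from 0.840 to 1.32. Within pairs the differences ran from -0.45 in Noggin pair 4 to 0.67 in Noggin pair 2, so pairs disagreed in sign by amounts far larger than the mean.

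The SoxC gene sox11.S had signals of 1500.0, 2655.7, 2141.5 and 2145.2 in the uninjected caps of pairs 1 to 4. Injected caps of the same pairs had 2408.9, 2342.5, 2991.1 and 2705.3. Injected caps were higher in pairs 1, 3 and 4 and lower in pair 2, and the groups overlapped. In Noggin the uninjected caps had 1753.1, 1075.0, 2371.7 and 2355.4. Those injected in Noggin had 1761.1, 1735.7, 2481.3 and 2148.1. Noggin pair 2 differed most, again with the lowest control of the group. Group means were 1888.8 ± 614.1 in uninjected caps with Noggin, 2031.6 ± 354.3 in foxD5 caps with Noggin, 2110.6 ± 473.3 in uninjected caps and 2611.9 ± 297.9 in foxD5 caps (SD, n = 4), and neighbours in that order overlapped.

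The foxD5 effect on sox11.S was 0.27 ± 0.19 (log2, SE) without Noggin and 0.14 ± 0.19 in Noggin. Over both cultures it was 0.21 ± 0.13, with a 95% interval from -0.08 to 0.50, a limma adjusted p of 0.582 and higher values in 6 of 8 pairs. The probe set annotated to both sox11 homeologs gave -0.02 ± 0.13 (adjusted p = 0.968), higher in 4 of 8 pairs. Signal that one homeolog gives on probes designed for the other cannot be told apart on these arrays.

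The gene sox15.L had signals of 559.2, 414.7, 320.1 and 582.0 in the uninjected caps of pairs 1 to 4. In the injected caps the signals were 387.5, 448.1, 425.3 and 516.9. Pairs 1 and 4 were lower in injected caps and pairs 2 and 3 higher, the reverse of sox3.S in each of the 4 pairs. In Noggin the uninjected caps had 428.1, 651.8, 391.2 and 439.9. The injected siblings had 514.3, 685.4, 374.5 and 470.7. The differences in Noggin were small, from -0.04 in Noggin pair 3 to 0.23 in Noggin pair 1. Group means were 444.5 ± 54.4 (foxD5), 469.0 ± 123.9 (uninjected), 477.7 ± 117.9 (uninjected with Noggin) and 511.2 ± 130.0 (foxD5 with Noggin), and all groups overlapped. The mean foxD5 effect was 0.02 ± 0.12 (log2, SE), with a 95% interval from -0.23 to 0.28 and a limma adjusted p of 0.966.

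Read by comparison, limma called 0 of the 6 probe sets for foxD5 without Noggin, where the background was 37 probe sets (0.239%). At an unadjusted p under 0.05 there were 1 of 6, the sox2.L _at probe set, and 1581 of all 15491. It called 0 of 6 for foxD5 in Noggin, where the background was 49 (0.316%), and the same probe set was the 1 of 6 with an unadjusted p under 0.05, against 1141 of all. The difference of the foxD5 effects called 0 of 6 and 0% of all probe sets, with 0 of 6 and 765 of all probe sets at an unadjusted p under 0.05. For the 6 probe sets that difference ran from -0.13 to 0.23 with adjusted p from 0.979 to 0.997. The median foxD5 effect over both cultures was 0.14 for the 6 probe sets and -0.01 for all.

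**Figure D4:**
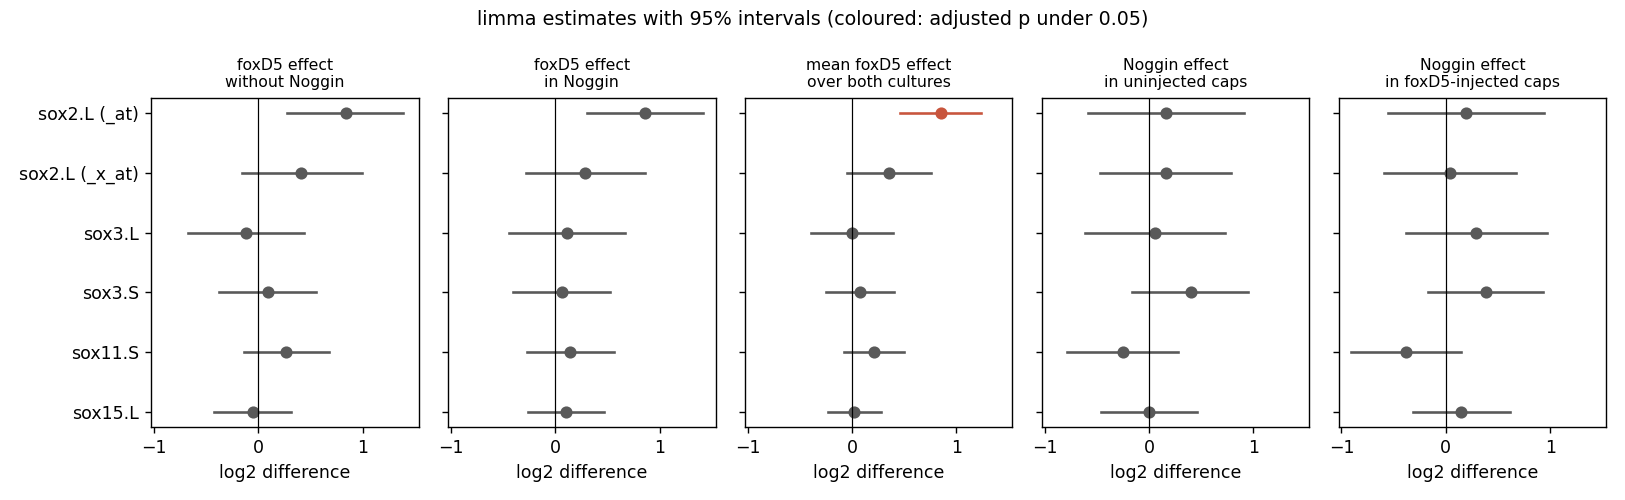
limma estimates (points) with 95% intervals (bars) for the 6 Sox probe sets in 5 comparisons, on the log2 scale, where 0 means no difference. The coloured estimate, sox2.L (_at) for the mean foxD5 effect (0.85, from 0.46 to 1.24), is the only one with an adjusted p under 0.05. The intervals of the sox3.L, sox3.S, sox11.S and sox15.L estimates all include 0.

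Culture in Noggin moved none of the 6 probe sets past the threshold. The labels tie no sample with Noggin to one without it, so a difference between the embryos used for the 2 cultures cannot be told apart from Noggin. In uninjected caps 0 of 6 passed, against a background of 1 probe set called (0.00646%), and 0 of 6 and 1275 of all had an unadjusted p under 0.05. In injected caps 0 of 6 passed, against 20 of all (0.129%), and 0 of 6 and 1825 of all had an unadjusted p under 0.05. The difference for sox3.S was 0.40 ± 0.26 (log2, SE) in uninjected caps and 0.38 ± 0.26 in injected caps, with adjusted p of 0.741 and 0.617. The difference for sox11.S was -0.25 ± 0.25 in uninjected and -0.38 ± 0.25 in injected caps, with adjusted p of 0.848 and 0.597. For the sox2.L _at probe set it was 0.16 ± 0.35 in uninjected caps, with a 95% interval from -0.58 to 0.91, which includes a change as large as its foxD5 effect. The 2 Noggin comparisons and the 2 foxD5 comparisons share arrays.

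Groups that do not overlap on the normalised scale were counted as a further description. Between foxD5 and uninjected caps without Noggin, 2 of 6 probe sets did not overlap, both those of sox2.L, and the background was 3.2%. These 2 read 1 gene on the same arrays, so they are not independent of each other. Both gaps were narrow on the log2 scale, from 5.65 to 5.67 for the _at probe set and from 6.66 to 6.67 for the _x_at probe set. The deposited signals of the _x_at probe set overlapped. Between the same groups in Noggin, 0 of 6 did so and the background was 2.41%. Between uninjected caps with and without Noggin, 0 of 6 did so and the background was 4.78%. Between foxD5 caps with and without Noggin, 1 of 6 did so, sox3.S, which was higher with Noggin, and the background was 7.15%.

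The spread within groups differed for several of these genes. The SD of log2 values of sox3.S was 0.45 in uninjected and 0.05 in foxD5 caps without Noggin, and 0.58 and 0.20 in Noggin. That of sox11.S was 0.43 and 0.09 without Noggin, and 0.58 and 0.26 in Noggin. That of the sox2.L _at probe set was 0.59 and 0.12 without Noggin, and 0.88 and 0.46 in Noggin. On this scale the injected samples of these 3 lay closer together than the controls in both cultures. The deposited signals of sox2.L _at did not follow in Noggin, with an SD of 25.4 in injected and 20.6 in uninjected caps. Without Noggin those SDs were 9.34 and 10.3. In Noggin, 1 low control, that of Noggin pair 2, enters all 3 control SDs. It was at 9.42 for sox3.S, where the other controls ran from 10.47 to 10.74 and the injected samples from 10.09 to 10.55. For sox11.S it was at 10.01, with the other controls from 10.82 to 11.29 and the injected samples from 10.71 to 11.31. For sox2.L _at it was at 4.09, with the other controls from 4.63 to 5.85. SDs without that control were not computed. The SD was lower in injected caps for 5 of the 6 probe sets without Noggin, all but sox2.L _x_at (0.18 and 0.35), and for 5 of 6 in Noggin, all but sox15.L (0.29 and 0.34). Over the 7745 probe sets whose mean lies above the median, the SD was lower in injected caps for 53.8% without Noggin and 49.6% in Noggin. That set leaves out sox3.L and the sox2.L _at probe set, both with a lower log2 SD in injected caps in each culture. For sox3.L, which is near the bottom of the signal range, this depends on the scale. Its deposited signals without Noggin had an SD of 8.65 in injected and 5.44 in uninjected caps. The counts of 5 of 6 and these shares therefore cover unlike sets. With 4 arrays a group these SDs are themselves imprecise, and their difference was not tested.

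**Figure D5:**
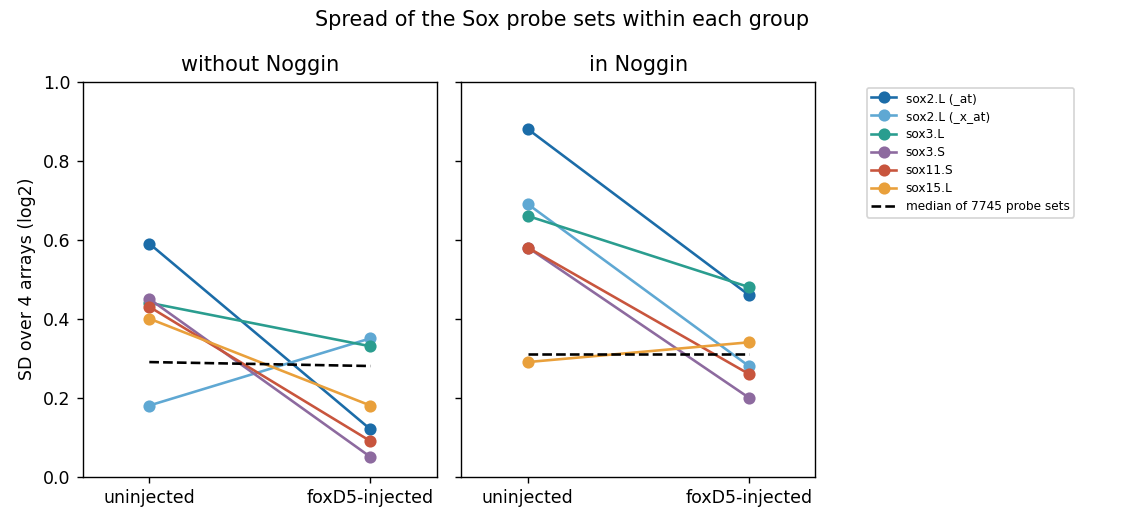
SD of the normalised log2 values over the 4 arrays of each group, for the 6 Sox probe sets (coloured lines from uninjected to foxD5-injected caps) without Noggin and in Noggin. The dashed line joins the median SD of 7745 probe sets, which was 0.29 and 0.28 without Noggin and 0.31 and 0.31 in Noggin. Those probe sets have a mean above the median and leave out sox3.L and sox2.L (_at). Of the 6 lines, 5 fall in each panel.

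Keratins, intermediate filament proteins of epithelia, are given here beside the Sox genes, pair by pair, as a mean of genes that differed among themselves. Over both cultures the log2 differences were -1.39 for krt70.L, -1.05 for krt12.4.L, -0.73 for krt12.4.S and -0.25 for krt8.1.S. They were -0.17 for krt70.S, 0.02 for krt18.1.L and 0.06 for krt18.1.S, and no keratin was called. The mean log2 difference of 7 keratin genes was -2.29 in pair 1, -0.08 in pair 2, 0.21 in pair 3 and -0.86 in pair 4. In Noggin pairs 1 to 4 it was -0.03, -0.93, -0.16 and 0.10. The 3 pairs with the largest keratin decreases, pairs 1 and 4 and Noggin pair 2, had sox3.S differences of 0.61, 0.43 and 0.67, the 3 highest of the 8, while the lowest was -0.45 in Noggin pair 4. In the same 3 pairs sox11.S differed by 0.73, 0.28 and 0.70 and the sox2.L _x_at probe set by 0.38, 0.77 and 1.55. There sox15.L differed by -0.57, -0.17 and 0.11 and sox3.L by 0.02, -0.07 and 0.17, with both signs. The sox2.L _at probe set differed by 0.77, 0.95 and 1.63 in those pairs and by 1.58 in pair 2, where the keratin difference was -0.08. In pair 2 the _x_at probe set differed by 0.45, more than its 0.38 in pair 1. For sox11.S the difference in pair 3, where keratins were higher in injected caps, was 0.34. Pair 1 has 45 caps in its control, the fewest of any sample, and its siblings' deviations from the group means correlated at -0.115 over all probe sets, against 0.203 to 0.67 in the other pairs. This reading by pair was not planned, and the part of the keratin difference in the Sox values was not tested.

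By Pearson's r over the 16 arrays, without regard to group, the genes most like each Sox gene were read from 5322 probe sets that have 1 symbol and lie above the median of all in mean log2 value. For sox3.S they were tgif1.S (0.91), gmnn.L (0.87), the gene of geminin, a regulator of DNA replication licensing that is also active in neural ectoderm, and sfrp2.S (0.86), a secreted Wnt modulator. For sox11.S they were pfdn6.S (0.89), ube2s.S (0.89) and anapc16.L (0.88). Both ube2s and anapc16 act in the anaphase-promoting complex pathway. For sox15.L they were cxxc1.S (0.92), zbtb44.L (0.92) and mtus1.L (0.91). The highest likenesses of the sox2.L _x_at probe set, which has the higher signal of the 2, were MGC85216 (0.79), dbi.L (0.78) and haus8.L (0.72). Those of sox3.L were ndufb10.S (0.79), cdv3.L (0.71) and wwc1.S (0.70), at a sox3.L signal where noise is large. The 16 arrays hold siblings within pairs and share the same normalisation, so these values are descriptive.

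The remaining lists are read for foxD5 over both cultures, where 213 of all 15491 probe sets (1.37%) were called and 1792 had an unadjusted p under 0.05. Of 11 other Sox genes 0 were called by limma and 1 had an unadjusted p under 0.05, and their median log2 difference was 0.02. The smallest p belonged to sox17b.1.S, an endoderm determinant, at -0.59 ± 0.17 (SE, adjusted p = 0.165, lower in 7 of 8 pairs). For sox17a.L, its paralogue, the value was -0.14 ± 0.14 (adjusted p = 0.748). The other homeolog, sox17a.S, was at 0.12 ± 0.15 (limma adjusted p = 0.818). Mean signals of both sox17a homeologs were under 16 in all 4 groups.

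POU proteins bind DNA beside SoxB1 proteins, and 1 of 8 measured POU genes passed, against 1.37% of all probe sets. The gene pou2f1.S, which encodes the octamer-binding protein Oct1, rose by 1.07 ± 0.13 (log2, SE) over both cultures, with a limma adjusted p of 0.00189 and higher values in 8 of 8 pairs. Its mean signals were 113.1 in uninjected and 244.4 in foxD5 caps, and 178.0 and 446.9 in Noggin. The call held when each of the 8 pairs was left out in turn, with adjusted p from 0.00284 to 0.0107. Of the POU5 genes, which hold early Xenopus cells uncommitted, pou5f3.2.L was at -0.05 ± 0.09 (adjusted p = 0.893), pou5f3.1.L at 0.39 ± 0.28 (adjusted p = 0.632) and pou5f3.3.L at -0.26 ± 0.16 (adjusted p = 0.561).

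Against 1.37% of all probe sets called, 0 of 23 neural ectoderm regulators rose and 1 fell over both cultures, with a median log2 difference of 0.00. The one that fell was irx1.L, an Iroquois homeobox gene, by 0.71 ± 0.11 on the log2 scale (limma adjusted p = 0.00797, lower in 8 of 8 pairs). Without the sibling block its adjusted p was 0.25, and with a pseudocount of 1 it was 0.0657. The list includes the forkhead genes foxd4l1.1.S (0.44 ± 0.29, limma adjusted p = 0.579) and foxd4l1.2.L (-0.19 ± 0.12, adjusted p = 0.575). Whether the injected foxD5 mRNA adds to their signal was not tested. Mean signals of foxd4l1.2.L, rax.L, rax.S and zeb2.S were under 16 in all 4 groups. Of 12 neuronal genes, 2 rose and 0 fell, with a median log2 difference of -0.03 and 6 of the 12 above 0. The first that rose was elavl3.L, which encodes a neuronal RNA-binding protein (0.84 ± 0.17, adjusted p = 0.0291, higher in 7 of 8 pairs). Its effect was 0.40 ± 0.23 without Noggin and 1.28 ± 0.23 in Noggin (limma adjusted p = 0.594 and 0.047). The difference of those effects was not called (0.88 ± 0.33, limma adjusted p = 0.926). Mean signals of elavl3.L in uninjected caps were 16.1 without Noggin and 4.52 in Noggin. The other was tubb2b.S, a neural beta-tubulin (0.76 ± 0.16, adjusted p = 0.046, higher in 8 of 8 pairs). Its effect was 0.44 ± 0.23 without Noggin and 1.08 ± 0.23 in Noggin, and their difference was not called (limma adjusted p = 0.926). Among the uncalled genes, neurod1.L was lower in 7 of 8 pairs (-0.36 ± 0.16, limma adjusted p = 0.41), with mean signals under 16 in all 4 groups. Mean signals of ebf2.L, ebf2.S, ebf3.L, neurod4.L and neurog2.L were also under 16 in all 4 groups. There the added 16 damps differences, so the median of this list does not show a lack of response. The call of elavl3.L was lost without pair 2 (adjusted p = 0.0782), pair 4 (0.0514), Noggin pair 1 (0.11) or Noggin pair 2 (0.0904). That of tubb2b.S held only without Noggin pair 3 (0.0379) or Noggin pair 4 (0.0452) and reached 0.133 without pair 4. Without the sibling block the adjusted p of tubb2b.S was 0.148, and with a pseudocount of 1 it was 0.232. For elavl3.L a pseudocount of 1 gave 1.84 (adjusted p = 0.127) and one of 64 gave 0.34 (adjusted p = 0.0654). Of 7 inducers of neural tissue or inhibitors of BMP, 1 rose, the signalling gene fgf8.L, by 1.85 ± 0.19 (adjusted p = 0.00068, higher in 8 of 8 pairs). Only 3 of the 7 were above 0. The uncalled bambi.L (-0.88 ± 0.23, limma adjusted p = 0.107) and bambi.S (-0.40 ± 0.13, adjusted p = 0.206) were each lower in 7 of 8 pairs. Mean signals of cer1.S, fst.L, grem1.L and nog.L were at most 22.2 in every group.

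Among the 15 ectoderm markers, 0 rose and 3 fell over both cultures, against 1.37% of all called, and the median log2 difference was -0.71, against -0.01 for all. These were the epidermal regulators gata2.L (-1.28 ± 0.20, limma adjusted p = 0.00758), grhl3.L (-0.95 ± 0.12, adjusted p = 0.00189) and tfap2a.L (-1.33 ± 0.17, adjusted p = 0.00234), each lower in 8 of 8 pairs. Without the sibling block the adjusted p of gata2.L was 0.0987, and with a pseudocount of 1 it was 0.077. Of 8 mesoderm markers 1 rose, tbxt.S, the Brachyury gene (0.65 ± 0.13, adjusted p = 0.0336), from mean signals under 16 in both uninjected groups, and 5 of the 8 had a mean signal under 16. The tbxt.S call held only without pair 1 (adjusted p = 0.0147) or pair 3 (0.0371). Without the sibling block its adjusted p was 0.253, and a pseudocount of 1 gave 1.35 (adjusted p = 0.0455) and one of 64 gave 0.27 (adjusted p = 0.0838). Of 13 endoderm markers, of which only 4 had a mean signal over 16, 0 passed the limma test. At an unadjusted p under 0.05 there were 5, against 1792 of all 15491 probe sets. Among those 5 were gata5.S, a GATA factor of endoderm (-0.57 ± 0.14, adjusted p = 0.0769), and sox17b.1.S. The single cochlea marker, gjb2.L, was at 0.67 ± 0.14 (adjusted p = 0.041), and this call held only without pair 1 (0.0382) or Noggin pair 2 (0.03). Without the sibling block its adjusted p was 0.119, and with pseudocounts of 1 and 64 it was 0.162 and 0.0536. The part of mesoderm or endoderm cells in the Sox values was not tested.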

How the data were processed

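Arrays were of the Affymetrix Xenopus type, and the deposited values are intensity, a linear signal with 1 value per probe set. Their trimmed mean, averaged over the arrays, was 150.0 (without the lowest and highest 2%, found from the values). The software that made them and any scaling step are not given in the sources used here. Signal range and the number of arrays limit the precision.

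A pseudocount of 16 was added before log2. Medians of the arrays lay between 5.79 and 6.35, and quantile normalisation followed. The test took in 15491 of 15611 probe sets, all but 120 Affymetrix controls, with no filter. The platform annotation gave 1 symbol for 9304, several for 195 and none for 5992. Of the first, 9227 were found among RefSeq genes by Entrez identifier and 2 were renamed.

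Fits used limma 3.58.1 in R 4.3.3 with empirical Bayes moderation, two-sided, Benjamini-Hochberg over all probe sets and a threshold of 0.05. The foxD5 comparisons took the 16 arrays together and fitted each sibling pair as a block (6 residual degrees of freedom), and the Noggin comparisons used group means with pair as a random block (correlation 0.364, 12 degrees of freedom). Pairs follow the labels, which name each control as siblings of a numbered sample. The 1 injected sample per culture that carries no number was given number 1, which no other sample had. The deviations of siblings from group means correlated at -0.115 in pair 1 and at 0.203 to 0.67 in the other 7. The labels do not say whether pairs come from separate clutches, so the p-values reflect only how these samples vary, which may be technical.

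Members, gene lists and tests were chosen with earlier results of these data known. All Sox probe sets were named, with the 3 genes most like each by Pearson's r. In each gene list, every gene that passed was named, and where none passed, the 2 with the smallest p. Uncalled genes named beyond that rule, among them the 3 POU5 genes, neurod1.L and the keratins, were added after the values were seen. The gap between the sox2.L probe sets was added in the same way. The keratin means by pair and the SDs within groups were not planned. Alternatives were no sibling block, median centring or no scaling in place of quantiles, pseudocounts of 1 and 64, a filter at the median signal, and leaving out each pair. Sequences were not used here.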

Additional observations from a re-analysis of the deposited data

Results flagged for a closer look

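In foxD5 caps without Noggin, the sox11.S level of replicate 3 was 11.48 on the normalised log2 scale (a deposited signal of 2991.1), and the other 3 arrays lay at 11.28, 11.3 and 11.31. Its gap to the nearest array, divided by the range of the group, was 0.837, just past Dixon's critical value at the 95% level for 4 samples. Of 36 groups of 4 values examined, 1 was past that value, and chance passes about 1 group in 20.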

How the results depend on the processing

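The count of called Sox probe sets for foxD5 over both cultures, 1 of 6, fell to 0 with no sibling block, with a pseudocount of 1 and with only the probe sets above the median, which leaves out sox3.L and the sox2.L _at probe set (4 of 6 remain). Leaving out 1 pair gave 0 to 1. In the other 5 comparisons the count was 0 under every alternative run. With no replicate block the called probe sets numbered 1, 3 and 67 of all for foxD5 without Noggin, in Noggin and over both cultures, in place of 37, 49 and 213. Over the other alternatives they ran from 0 to 52, 1 to 54 and 57 to 221, and over left-out pairs from 7 to 38, 5 to 59 and 89 to 394. For Noggin they ran from 0 to 4 in uninjected and 0 to 193 in injected caps, where 193 came with a pseudocount of 64 and 96 with only the probe sets above the median. There the share of higher calls, 55% of 20, was 42.9% of 7 as deposited and 73.3% of 15 when centred.

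Of 492 Sox values under alternatives, 432 kept direction and call, 8 lost the call and 52 changed sign, none of these called. As deposited, sox3.L was at 0.01 over both cultures and -0.04 for Noggin in uninjected caps, and sox15.L at 0.04 there. When centred, sox3.L was at 0.03, the sox2.L _at difference of effects at -0.02 and sox15.L for Noggin in uninjected caps at 0.16. With a pseudocount of 1, sox3.L was at 0.17 and, for Noggin in uninjected caps, -0.14.

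Leaving out 1 pair turned the sign of uncalled values, given here as ranges over the left-out pairs on the log2 scale. For foxD5 without Noggin these were sox3.L (-0.29 to 0.13), sox3.S (-0.09 to 0.23) and sox15.L (-0.22 to 0.12). For foxD5 in Noggin they were sox2.L _x_at (-0.13 to 0.50), sox3.L (-0.20 to 0.38), sox3.S (-0.13 to 0.24) and sox11.S (-0.04 to 0.24). Over both cultures they were sox3.L (-0.16 to 0.13), sox3.S (-0.02 to 0.16) and sox15.L (-0.06 to 0.11). For the difference of the foxD5 effects they were sox2.L _at (-0.23 to 0.28), sox2.L _x_at (-0.54 to 0.08), sox3.L (-0.08 to 0.49), sox3.S (-0.22 to 0.16), sox11.S (-0.31 to 0.03) and sox15.L (-0.02 to 0.32). For Noggin in uninjected caps they were sox2.L _at (-0.09 to 0.50), sox2.L _x_at (-0.07 to 0.46), sox3.L (-0.15 to 0.26), sox11.S (-0.43 to 0.02) and sox15.L (-0.19 to 0.09). For Noggin in injected caps they were sox2.L _at (-0.02 to 0.33) and sox2.L _x_at (-0.08 to 0.21). The cause was not tested. Signals near background limit sox3.L and sox2.L _at.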
